A study of Mus musculus with 3 samples.

Results

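Transcript levels of 10 genes for transcription factors that respond quickly to signals were followed across dendritic cells in 3 states. The set holds Fos, Fosb, Fosl2, Jun, Junb, Jund and Atf3 of the AP-1 group, the zinc finger factors Egr1 and Egr2, and the small MAF protein Maff. Members were looked up by current or older symbol in the platform annotation, which named 10 probes for 9 of the 10 genes. Fosl2 had no named probe, so its transcript was not analysed here. All 9 genes were detected on all 3 arrays by 1 probe each, among 8055 named genes detected on at least 1 array. Maff had another probe, which was above background on no array.

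The arrays were Illumina MouseRef-8 v2 bead arrays, 1 for each of 3 groups (mDC, tDC and imDC). All cells came from the marrow of DBA mice, 6 weeks old, and grew for 8 days in GM-CSF (20 ng/ml) with interleukin-4 (2 ng/ml), a mixture under which marrow progenitors turn into dendritic cells. The mDC culture, called fully mature in the labels, then received lipopolysaccharide (1 µg/ml) together with type II collagen (50 µg/ml) for 24 h. The tDC culture, called semi-mature or tolerogenic, received TNF-alpha (10 ng/ml) with the same dose of collagen for 4 h. For the imDC culture, called immature, no stimulus is named and no hour of harvest is given. The labels do not say how many mice gave marrow, and no genetic change is named for any group. Stimulus and time differed together between the groups, so their parts cannot be told apart.

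AP-1 factors are pairs of basic leucine zipper proteins. FOS proteins bind DNA only as partners of JUN proteins, whereas JUN proteins can also pair with each other and with members of the ATF family. Many of these genes are immediate early genes, whose transcripts appear within minutes of a signal through MAP kinases and then decay. EGR proteins are zinc finger factors induced by the same kinases and held in check by NAB corepressors. Small MAF proteins such as MafF carry a leucine zipper but no activation domain, and pair with CNC proteins (Nfe2, Nfe2l1, Nfe2l2) or with Bach1. In dendritic cells and macrophages these factors act at cytokine genes beside NF-kB.

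Promoter windows of 5 members are shown because their transcripts covered the patterns described below, with Junb and Atf3 alike and Egr2, Maff and Fos each different. Each window runs from 250 bases before to 50 bases after a start site, 5′ to 3′ on the gene's strand, from RefSeq on build GRCm38.p6. Junb lies at chr8:84978699-84978998 (minus strand), Atf3 at chr1:191183284-191183583 (minus), Fos at chr12:85473640-85473939 (plus), Egr2 at chr10:67537619-67537918 (plus) and Maff at chr15:79347270-79347569 (plus). Egr2 and Maff have several annotated starts. The windows printed are ones that hold the CArG box and the full CRE. Capitals mark motif matches on either strand.
Junb: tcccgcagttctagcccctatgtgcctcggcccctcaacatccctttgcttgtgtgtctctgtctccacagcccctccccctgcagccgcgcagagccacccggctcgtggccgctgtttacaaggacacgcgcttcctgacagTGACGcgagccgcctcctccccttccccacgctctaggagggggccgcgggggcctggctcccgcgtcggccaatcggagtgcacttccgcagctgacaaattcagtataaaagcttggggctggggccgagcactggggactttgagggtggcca
Atf3: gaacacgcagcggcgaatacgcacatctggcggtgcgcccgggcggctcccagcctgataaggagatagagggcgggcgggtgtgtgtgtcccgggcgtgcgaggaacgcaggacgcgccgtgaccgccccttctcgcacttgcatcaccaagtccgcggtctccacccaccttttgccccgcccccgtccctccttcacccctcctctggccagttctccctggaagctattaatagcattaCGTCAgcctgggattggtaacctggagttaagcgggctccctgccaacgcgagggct
Fos: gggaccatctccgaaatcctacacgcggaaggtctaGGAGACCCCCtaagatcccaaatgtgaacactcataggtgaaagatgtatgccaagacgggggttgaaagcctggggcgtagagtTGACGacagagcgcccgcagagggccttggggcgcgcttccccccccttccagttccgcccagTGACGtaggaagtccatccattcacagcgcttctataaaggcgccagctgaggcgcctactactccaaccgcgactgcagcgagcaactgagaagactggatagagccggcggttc
Egr2: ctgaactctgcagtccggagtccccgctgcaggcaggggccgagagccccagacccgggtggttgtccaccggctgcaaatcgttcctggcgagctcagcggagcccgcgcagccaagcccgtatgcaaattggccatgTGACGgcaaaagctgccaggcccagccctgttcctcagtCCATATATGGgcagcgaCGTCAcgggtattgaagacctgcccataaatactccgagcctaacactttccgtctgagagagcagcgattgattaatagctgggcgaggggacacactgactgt
Maff: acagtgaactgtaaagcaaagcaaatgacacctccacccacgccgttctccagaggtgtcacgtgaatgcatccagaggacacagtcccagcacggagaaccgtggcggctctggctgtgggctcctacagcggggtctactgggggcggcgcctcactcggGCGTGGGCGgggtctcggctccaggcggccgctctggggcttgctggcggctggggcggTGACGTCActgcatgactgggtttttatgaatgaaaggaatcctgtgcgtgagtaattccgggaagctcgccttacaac

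The motifs searched were TGANTCA (the AP-1 site), TGACGTCA (the full cyclic AMP response element, or CRE), TGACG (the CRE core, which also lies inside the full CRE), GCGNGGGCG (the EGR site), the CArG box bound by SRF, and the NF-kB site. The search took in 15 windows of 9 members, Fosl2 among them, and Egr1 was not searched. Over these windows, a CRE core was found in 9 windows of 6 members, some of them overlapping windows of 1 gene, and in 20.8% of all 32851 windows of this length in the table. A full CRE was found in 1 window, of Maff alone among the 9 members searched, and in 1.79% of all windows. A CArG box was found in 4 windows, some of them overlapping, of Egr2 alone among the 9, and in 1.63% of all windows. EGR sites occurred in 3 of the 15 windows, from 3 members (Fosb, Fosl2 and Maff), and in 5.55% of all windows. NF-kB sites occurred in 4 of the 15, from 4 members, and in 4.51% of all windows. The AP-1 site as searched, TGANTCA, had 0 matches in these windows, against 7.81% of all windows. Variants of these letters, and bases outside the windows, were not searched. A motif absent here may therefore lie further than 250 bases before a start. The Jun window holds TGACATCA, which differs from the full CRE in 1 letter and which none of these motifs takes in. In the printed Egr2 window the CArG box began at -72 relative to the start, between CRE cores at -111 and -55. The Maff window held an EGR site at -88 and the full CRE at -29. Such matches describe the letters of a window and are not evidence that a factor binds there.

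**Figure D1:**
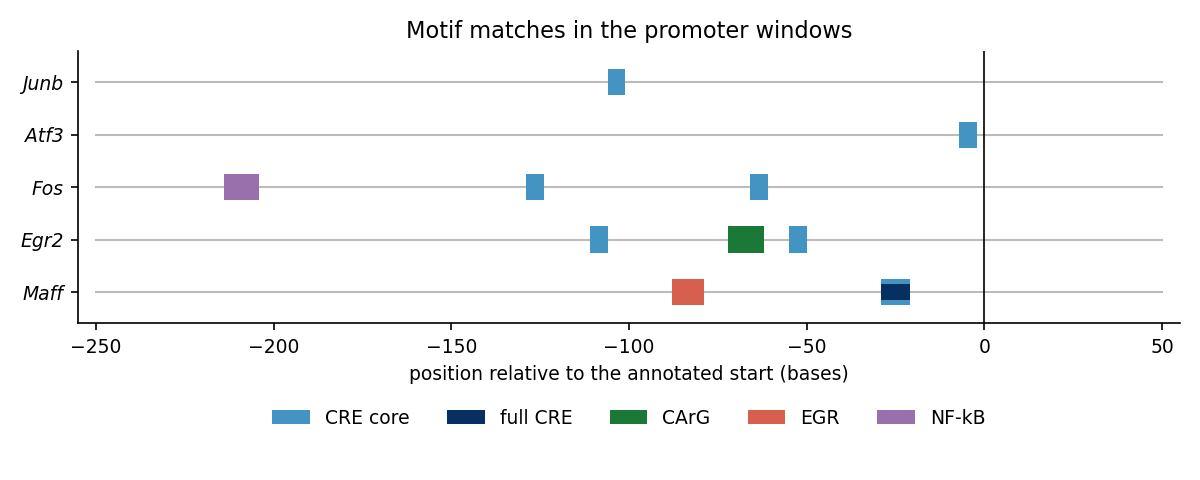
Motif matches in 5 promoter windows, drawn as boxes along the position in bases relative to the annotated start (0). A CRE core lies in each of the 5 windows, the CArG box only in that of Egr2, and the EGR site and the full CRE only in that of Maff. Among several starts, the Egr2 and Maff windows were picked for the CArG box and for the full CRE, which contains the core. Of the 9 members searched, 6 had a CRE core in any window.

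Arrays were alike in depth. Between 10673 and 11006 of 25697 probes were detected (detection p under 0.01), the median signal lay between 124.7 and 131.7 intensity units, and the lowest signal of a detected probe lay between 154.8 and 159.8. A single array stood for each group, so that no difference below has a test, a standard deviation or an interval, and precision is limited by that number. A log2 difference of at least 1 in size, which is 2-fold, was the threshold for calling a gene higher or lower. The scatter between 2 detected probes of a gene served as the only measure of error, and it leaves out variation between cultures. It had a median of 0.13 and a 90th percentile of 0.36 on the log2 scale for tDC against imDC (1846 genes), 0.15 and 0.42 for mDC against imDC, and 0.13 and 0.35 for mDC against tDC.

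The members had no common direction. The stimuli had lasted 4 h in tDC and 24 h in mDC, so an earlier, brief rise of a transcript was not measured. Junb was higher and Egr2 lower in mDC than in imDC, Maff was higher in tDC than in imDC, and no other member reached 2-fold in a comparison with imDC. In mDC against imDC 1 member was higher and 1 lower of 9, where 12.1% of 7973 genes were called in either direction (6.16% higher and 5.96% lower). In tDC against imDC 1 member was higher and 0 were lower, against 4.9% of 7884 genes (2.88% higher and 2.02% lower). In mDC against tDC 2 members were lower and 0 higher, against 6.23% of 7831 genes (3.44% higher and 2.8% lower). With 9 members these counts are too small to set apart from those shares. The median log2 difference of the members was 0.03 for mDC against imDC, -0.30 for tDC against imDC and 0.06 for mDC against tDC, beside medians of 0.00, 0.00 and -0.02 over all genes. In bulk RNA, a gene used in fewer cells and less of its RNA per cell cannot be told apart.

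**Figure D2:**
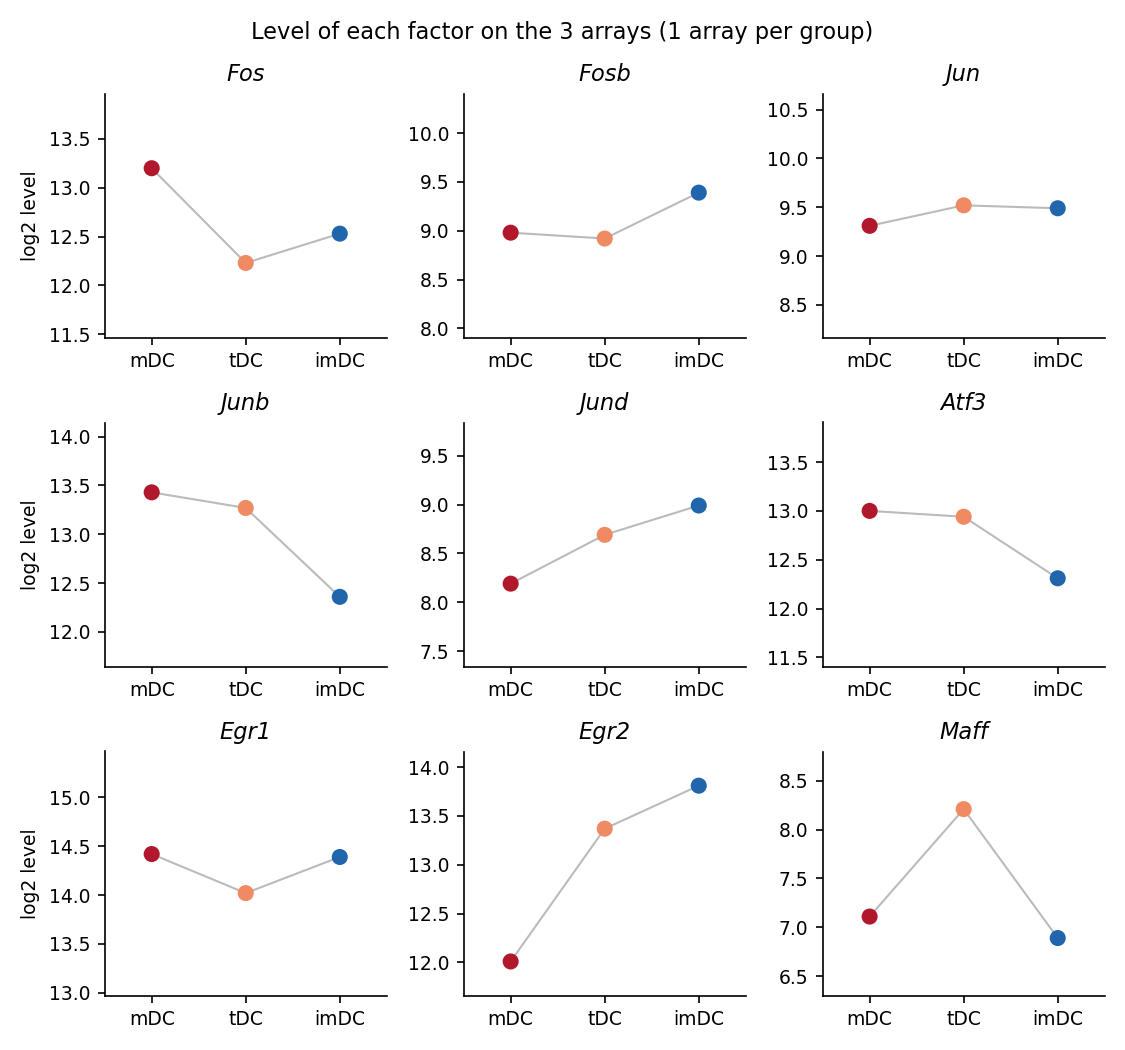
Normalized log2 level of each of the 9 measured factors on the mDC, tDC and imDC arrays, 1 point per array, with every panel spanning the same height in log2 units. Egr2 is lowest in mDC, Maff is highest in tDC, Junb and Atf3 are lowest in imDC, and Jun moves little.

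Junb and Atf3 ran in parallel, lowest in imDC and close to each other in tDC and mDC. Junb encodes a JUN family member that pairs with FOS and BATF proteins. Its signal was 11310 in mDC, 9959 in tDC and 5356 in imDC. The log2 difference was 1.07 for mDC against imDC (2.10-fold higher) and 0.91 for tDC against imDC, just under 2-fold. Between mDC and tDC it was 0.16, near the usual scatter between probes. Over all genes, 3.59% were as high or higher than Junb in tDC against imDC and 5.56% in mDC against imDC. Atf3 is a stress-induced factor known in mouse macrophages as a brake on cytokine genes switched on through Toll-like receptors. Its signal was 8225 in mDC, 7999 in tDC and 5144 in imDC. The log2 differences were 0.69 for mDC against imDC and 0.63 for tDC against imDC, both beyond the 90th percentile of probe scatter and below 2-fold, and 0.06 for mDC against tDC.

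Fos separated the mDC array from the other two. Fos is the classic partner of JUN proteins, with a short-lived transcript. Its signal was 9624 in mDC, 4955 in tDC and 6027 in imDC. The log2 difference was 0.97 for mDC against tDC (1.96-fold), 0.67 for mDC against imDC and -0.30 for tDC against imDC. With median scaling of the arrays the first of these was 1.00, at the 2-fold line. Fosb, a close relative, was highest in imDC, with a signal of 553.3 in mDC, 561.9 in tDC and 803.7 in imDC. Its log2 difference was -0.41 for mDC against imDC and -0.48 for tDC against imDC, and 0.06 for mDC against tDC, all below 2-fold. So Fos and Fosb differed in opposite directions in mDC against imDC, by amounts that for Fosb lay just within the 90th percentile of probe scatter.

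Jun itself varied least of the 9 genes. Jun encodes c-Jun, the main target of the JNK kinases and a factor that can act on its own promoter. The signal was 679.1 in mDC, 810.6 in tDC and 852.1 in imDC. Its log2 differences were -0.18 for mDC against imDC, 0.03 for tDC against imDC, which changed sign with median scaling (-0.02), and -0.21 for mDC against tDC. Over the 3 arrays Jun spanned 0.21 on the log2 scale, and 78.1% of the 7187 genes detected on all arrays spanned as much or more. Jund, a broadly expressed member of the family, stood in the reverse order to Junb. The signal was 353.2 in mDC, 492.1 in tDC and 631.1 in imDC, with log2 differences of -0.80 for mDC against imDC and -0.30 for tDC against imDC. The step of -0.50 between mDC and tDC was beyond the 90th percentile of probe scatter, while none of the Jund differences reached 2-fold. Among the JUN genes, then, Junb was higher in mDC than in imDC, and Jun and Jund had log2 differences below 0.

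Egr2 had the widest span of the members. The gene encodes a zinc finger factor that in mouse macrophages is induced by interleukin-4, which was part of this culture medium. Its signal was 4145 in mDC, 10626 in tDC and 14387 in imDC. The mDC array was lowest by far, and imDC was highest. Egr2 was 3.46-fold lower in mDC than in imDC (log2 difference -1.79) and 2.56-fold lower in mDC than in tDC (-1.36). In tDC against imDC the log2 difference was -0.43, below 2-fold and beyond the 90th percentile of probe scatter. Over all genes 1.58% were as low or lower than Egr2 in mDC against imDC, and 1.33% in mDC against tDC. The range of Egr2 over the 7 alternative settings was narrow, from -1.82 to -1.73 for mDC against imDC and from -1.40 to -1.34 for mDC against tDC. Only the alternatives that changed the background step, the scaling, the offset or the source of the values could move it.

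Egr1 did not follow Egr2. Egr1 encodes the related factor that serves as a general marker of MAP kinase signalling. Its signal was 21629 in mDC, 16899 in tDC and 21487 in imDC. The mDC and imDC arrays were nearly equal, with a log2 difference of 0.03. The tDC array was lowest, at -0.38 against imDC, and the log2 difference of mDC against tDC was 0.41. Both of these were just beyond the 90th percentile of probe scatter and below 2-fold. Over all genes, 15.7% were as low or lower in tDC against imDC and 12.3% as high or higher in mDC against tDC. Of the 7187 genes detected on all arrays, 47.8% spanned as much as Egr1 or more.

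Maff peaked in tDC. Its signal was 210.9 in mDC, 374.7 in tDC and 214.3 in imDC. These are dim values, since the lowest detected signal was 155.7 on the tDC array. After background correction Maff was 2.49-fold higher in tDC than in imDC (log2 difference 1.32) and 2.14-fold lower in mDC than in tDC (-1.10). In mDC against imDC the log2 difference was 0.22. Over all genes 1.62% were as high or higher in tDC against imDC. Both calls depended on the background step. Without it the difference of tDC against imDC was 0.86 and that of mDC against tDC -0.73, and in the authors' processed values they were 0.92 and -0.79. An offset of 50 left the first at 1.11 and put the second at -0.94. The other Maff probe gave 86.39 in mDC, 88.66 in tDC and 99.76 in imDC, with detection p-values of 0.80 in mDC, 0.71 in tDC and 0.46 in imDC, so it carried no information on these differences.

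**Figure D3:**
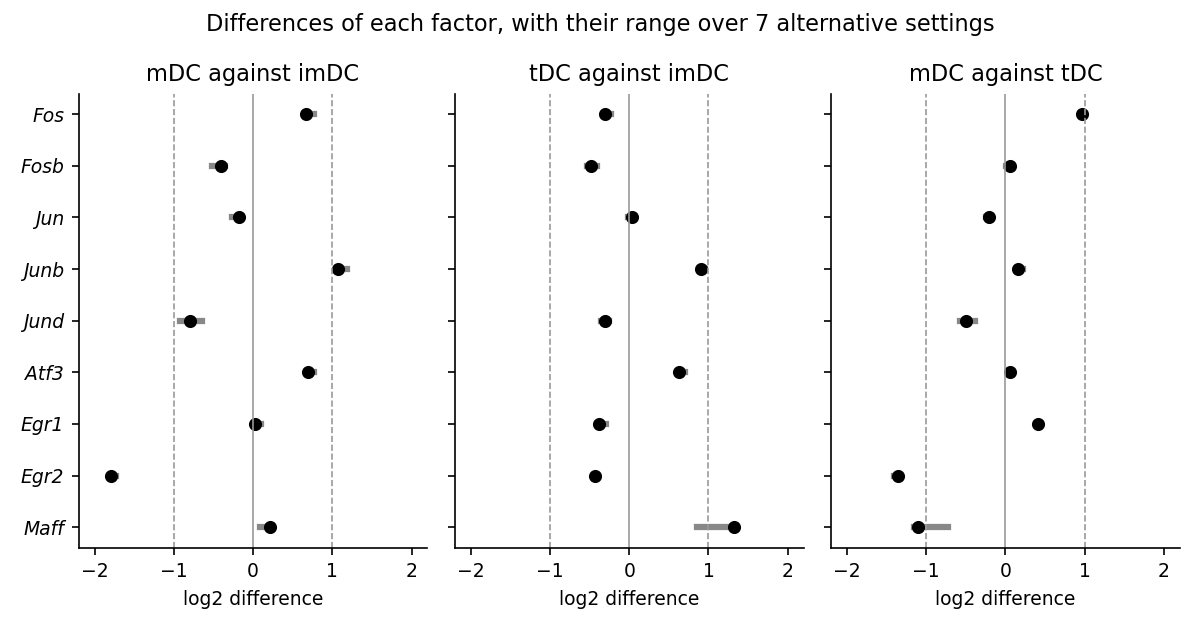
Log2 difference of each of the 9 factors in each comparison (points), with the range over the reported setting and 7 alternatives (grey bars). Dashed lines mark 2-fold. Egr2 stays beyond 2-fold in both comparisons of mDC, Junb stays beyond it in mDC against imDC, and the bars of Maff cross the 2-fold line in tDC against imDC and in mDC against tDC.

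Beyond the members, 3 bZIP partners (Batf, Batf2 and Jdp2) were higher on the mDC array. Of 12 listed AP-1 and related bZIP genes 9 were measured, and 3 were higher and 0 lower in mDC than in imDC. Over all genes, 6.16% were higher and 5.96% lower in mDC against imDC. The shares were 2.88% and 2.02% in tDC against imDC, and 3.44% and 2.8% in mDC against tDC. Counts of this list and of the lists below stand beside these shares and were not tested against them. Batf2, an interferon-induced factor, had a signal of 594.6 in mDC, 161.7 in tDC and 211.1 in imDC, and was 4.74-fold higher in mDC than in imDC and 6.79-fold higher than in tDC. The tDC signal of Batf2 was close to the lowest detected one. Batf, a partner of Junb that lacks an activation domain, gave 1417 in mDC, 769.8 in tDC and 690.4 in imDC, and was 2.50-fold higher in mDC than in imDC. Jdp2, which dimerizes with JUN proteins and represses their activity, gave 965.7 in mDC, 578.2 in tDC and 501.2 in imDC, and was 2.43-fold higher in mDC than in imDC. Batf3, a factor needed for cross-presenting dendritic cells, gave 2465 in mDC, 2521 in tDC and 2068 in imDC, a log2 difference of 0.36 in each comparison with imDC. In tDC against imDC 0 of the 9 reached 2-fold, with Crem, a factor of the cyclic AMP pathway, nearest at 0.97. In mDC against tDC 2 of 9 were higher, Batf2 and Batf (log2 difference 1.02). Batf was under 2-fold there without background correction, with median scaling, with the larger offset and in the authors' values. The list median was 0.36 for mDC against imDC, 0.30 for tDC against imDC and -0.04 for mDC against tDC. Fosl1 was above background on no array.

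Among the measured EGR and MAF partners only Nab1 reached 2-fold, too few to set apart from the shares of all genes. Of 4 listed EGR relatives and corepressors 2 were measured. Nab1, which represses EGR proteins, gave 1718 in mDC, 1401 in tDC and 899.8 in imDC, and was 2.23-fold higher in mDC than in imDC. Nab1 was highest on the array where Egr2 was lowest. Nab2, a second such corepressor, had log2 differences of -0.26 for mDC against imDC and 0.07 for tDC against imDC. Egr3 was above background on no array.

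Of 10 listed MAF and CNC genes 5 were measured and 0 reached 2-fold in any comparison. All 5 were above 0 in tDC against imDC (median 0.23) and all 5 below 0 in mDC against tDC (median -0.52), as Maff was. In tDC against imDC they ran from 0.12 to 0.94, with the median within the 90th percentile of probe scatter (0.36). In mDC against tDC they ran from -0.94 to -0.10, with the median beyond it (0.35). Both comparisons share the tDC array, so these counts are not independent. In mDC against imDC 4 of the 5 were below 0 (median -0.22), whereas Mafg (0.84) and Maff (0.22) were above it. Mafg, another small MAF protein, had a log2 difference of 0.94 in tDC against imDC. Nfe2, a CNC partner of small MAF proteins, gave 946.7 in mDC, 1812 in tDC and 1212 in imDC, with log2 differences of 0.72 for tDC against imDC and -0.94 for mDC against tDC. Nfe2l2, which encodes NRF2, and Bach1, its competitor at DNA, had log2 differences of -0.52 and -0.81 for mDC against tDC. Mafk was above background on no array.

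Upstream, SRF is the factor that binds CArG boxes in immediate early promoters. Of 6 listed genes of SRF and its cofactors 2 were measured and 0 reached 2-fold. Srf gave 1494 in mDC, 1698 in tDC and 1357 in imDC, with log2 differences of 0.29 for mDC against imDC and 0.43 for tDC against imDC. Of 21 genes of the MAP kinase cascade 14 were measured, 2 of them higher and 0 lower in mDC than in imDC, with a list median of -0.02. Mapkapk2, a kinase activated by p38 that stabilizes cytokine transcripts, gave 6653 in mDC, 5564 in tDC and 2958 in imDC, and was 2.38-fold higher in mDC than in imDC. Map2k1, which encodes the ERK activator MEK1, gave 524.3 in mDC, 356.0 in tDC and 296.2 in imDC and was 2.46-fold higher in mDC than in imDC, but under 2-fold without background correction. In tDC against imDC 0 of 14 reached 2-fold. Mapkapk2 (0.95) and Map3k8, the kinase that links Toll-like receptors and TNF receptors to ERK (0.92), came nearest.

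Of 16 other immediate early genes 11 were measured, and those at 2-fold were all higher than in imDC. In mDC against imDC 3 were higher and 0 lower (median 0.58), in tDC against imDC 2 were higher and 0 lower (median 0.52), and in mDC against tDC 0 differed by 2-fold. Phlda1 gave 11802 in mDC, 8228 in tDC and 3016 in imDC, and was 4.04-fold higher in mDC and 2.83-fold higher in tDC than in imDC. Gadd45b, a stress protein that acts on p38 and JNK signalling, gave 2459 in mDC, 2502 in tDC and 1159 in imDC. It was 2.41-fold higher in mDC and 2.39-fold higher in tDC than in imDC. Plk2, a polo-like kinase, was 2.17-fold higher in mDC than in imDC. Ier3 and Zfp36, which encodes the cytokine mRNA decay factor tristetraprolin, had log2 differences of 0.86 and 0.60 for mDC against imDC. Junb and Atf3 had the same order of arrays as Phlda1 and Plk2, and Egr2 and Jund the reverse.

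Genes known to carry AP-1 or EGR sites had log2 differences from -1.12 to 4.61 in mDC against imDC, where the members ran from -1.79 to 1.07. Of 17 listed genes 13 were measured in that comparison, and 8 were higher and 2 lower (median 1.60). That median is the bound of Ptgs2, and it was 1.19 without background correction, 1.24 with an offset of 50 and 1.21 in the authors' values. Of 12 measured in tDC against imDC 5 were higher and 0 lower (median 0.04). Tnf, which encodes the cytokine, gave 9326 in mDC, 6956 in tDC and 490.8 in imDC. Il1b, which encodes interleukin-1 beta, was 11.9-fold higher in mDC and 6.99-fold higher in tDC than in imDC. Il6 was 17.2-fold higher in mDC and 3.70-fold higher in tDC than in imDC. Mmp9, a gelatinase, was 3.14-fold higher in mDC and 3.30-fold higher in tDC than in imDC. Ccl2, a monocyte chemokine, was 2.34-fold higher in mDC than in imDC. Ptgs2, an inducible prostaglandin synthase, was at least 3.04-fold higher in mDC than in imDC, where it was not above background. Serpinb2, a plasminogen activator inhibitor, gave 2452 in mDC, 932.8 in tDC and 293.2 in imDC, and was 12.8-fold higher in mDC and 4.51-fold higher in tDC than in imDC. Timp1, an inhibitor of matrix proteases, gave 4655 in mDC, 1184 in tDC and 1274 in imDC and was 4.14-fold higher in mDC than in imDC, while its log2 difference was -0.03 for tDC against imDC. Cd44, an adhesion receptor, was 2.17-fold lower in mDC than in imDC, and under 2-fold with the mean of its probes. Plau, a plasminogen activator, was at least 2.12-fold lower in mDC, where it was not above background, but the call was lost without background correction, with an offset of 50, in the authors' values and under the stricter detection filter. Mmp13, a collagenase often used as an AP-1 reporter gene, gave 6753 in mDC, 6736 in tDC and 6758 in imDC. The list was drawn up with earlier results on these arrays known, and several of its genes are also NF-kB targets.

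**Figure D4:**
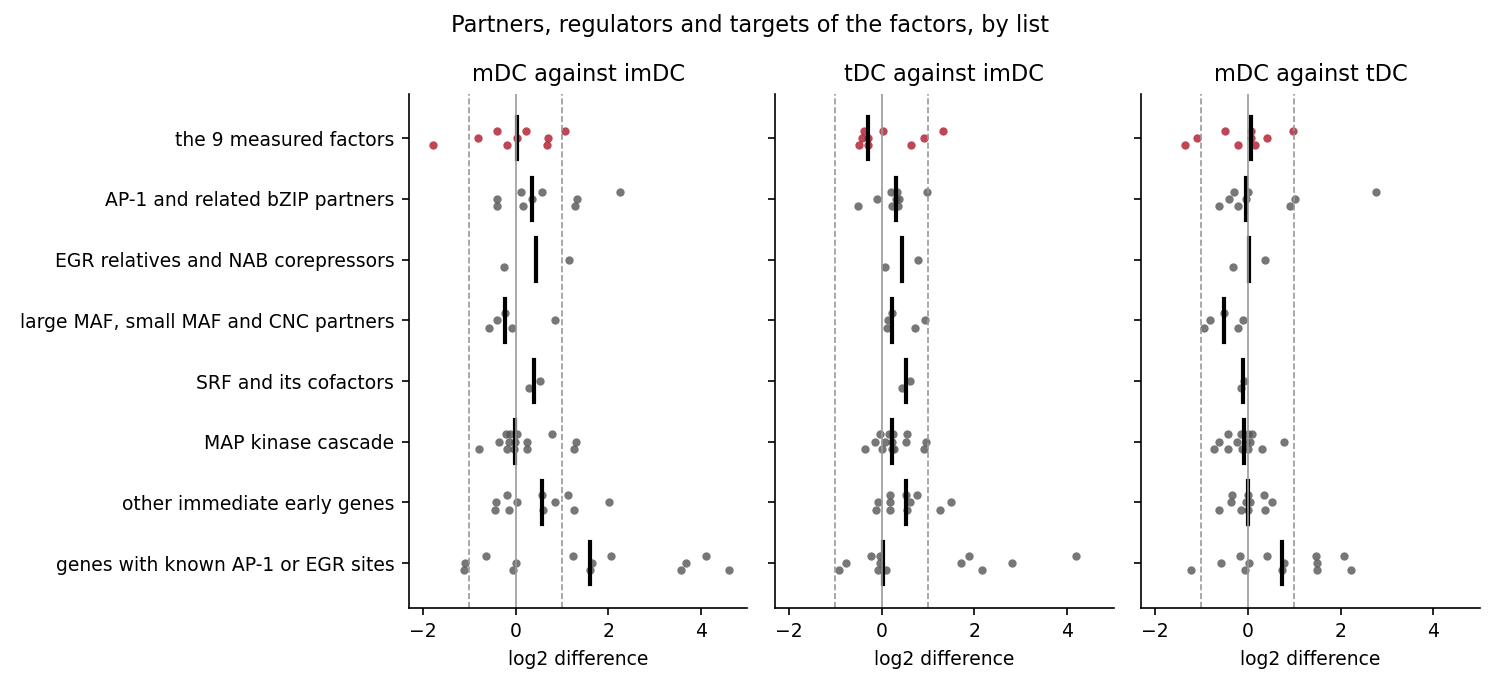
Log2 differences of the 9 measured factors (red) and of the measured genes of 7 related lists (grey), 1 point per gene, with black bars at list medians and dashed lines at 2-fold. The factors straddle 0 in each comparison. Genes with known AP-1 or EGR sites, a list drawn up with earlier results known, have a median of 1.60 in mDC against imDC and 0.04 in tDC against imDC. The value of 1.60 is the bound of Ptgs2, and the median was 1.19 without background correction.

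Profiles most like those of the 4 widest members were sought among 7186 other genes detected on all arrays, by the Euclidean distance between log2 levels centred on their own mean. For Egr2 they were Ptgir (distance 0.0679), Mpp6 (0.0738) and Dhcr7 (0.0743). For Maff they were Trem1 (0.0285), Prtn3 (0.0509) and Fam167a (0.0751). For Junb they were Arid5b (0.0245), Rdh11 (0.0255) and Nadk (0.0420), and for Fos Myo5a (0.0153), Plpp3 (0.0631) and Pon3 (0.0817). With 3 arrays a profile holds only 2 independent differences, so many genes lie close to any member. Prtn3, a neutrophil granule protease, Trem1, a receptor of neutrophils and monocytes, and Fam167a had log2 differences of 1.34, 1.32 and 1.33 in tDC against imDC. That of Maff was 1.32. These 3 genes were picked for their likeness to Maff, so the closeness of their values follows from the search.

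Markers of other cell types moved between the arrays as well. Of 12 neutrophil markers 11 were detected, and their summed signal was 143798 in mDC, 123100 in tDC and 67254 in imDC. Without Lcn2 the sums were 78231 in mDC, 96618 in tDC and 62109 in imDC, and 8 of the 11 had log2 differences below 0 in mDC against tDC (median -0.25). Mast cell and basophil markers, 8 of 9 measured, summed to 40095 in mDC, 18595 in tDC and 8826 in imDC. Of these sums Hdc alone gave 26092 in mDC, 7421 in tDC and 1367 in imDC. All 8 had log2 differences above 0 in mDC against imDC (median 1.28, with Hdc highest at 4.44). Of the 8, Ms4a2 was above background in mDC only, so its value is a bound that could not fall below 0. Macrophage and monocyte markers, 6 of 10 measured, summed to 29326 in mDC, 17513 in tDC and 20302 in imDC, with C1qb and C1qc not above background in mDC. In mDC against imDC 4 of these 6 were lower, led by Mrc1 (47.1-fold), and 2, Adgre1 (7.99-fold) and Ly6c1 (7.62-fold), were higher (median -2.02). Of 9 T and NK cell markers 4 were measured, with sums of 792.6 in mDC, 738.5 in tDC and 581.1 in imDC. Only 2 of the 4 were above background in tDC and in imDC. These sums are of signals with no background removed, so dim markers add background to them. The 2 measured of 6 B and plasma cell markers summed to 843.9 in mDC, 539.5 in tDC and 345.5 in imDC, with 1 above background in tDC and in imDC. The 3 measured of 6 erythroid and platelet markers summed to 1521 in mDC, 729.3 in tDC and 617.8 in imDC, with 2 above background in tDC and in imDC. Dcn, the 1 of 5 stromal markers above background on any array, gave 226.7 in mDC, 93.69 in tDC and 96.84 in imDC. Dendritic cell markers, 10 of 11 measured, summed to 67804 in mDC, 99078 in tDC and 93537 in imDC. Itgax, which encodes CD11c, and the MHC class II genes Cd74 and H2-Ab1 were detected on all 3 arrays. Cd209a was detected on the imDC array only, and Flt3 on none. In mDC against imDC 4 of the 10 were lower and 1, Irf8 (2.18-fold), was higher (median -0.48). The 4 were Itgax (3.88-fold), Ciita (2.14-fold), H2-Ab1 (2.06-fold) and Cd209a (at least 2.25-fold). In tDC against imDC 2 were lower, Itgax (2.29-fold) and Cd209a (at least 2.32-fold), and 0 higher (median 0.18). The part of these shifts in the differences of Junb, Egr2, Maff and Fos was not tested.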

How the data were processed

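Per the labels' protocols, RNA (550 ng) of 1 culture per group was amplified, labelled with biotin and put on 1-colour bead arrays. The file of unprocessed arrays gives each probe's average signal, a linear intensity, and its detection p-value, per the file headers. GenomeStudio 2011.1 appears in the submitters' processing notes. The authors also deposited log2 intensities of the same arrays, with a median of 6.98 in each column, made by steps not given in the sources used here.

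Signals were background corrected with the detection p-values (normexp, offset 16), quantile normalized and put on the log2 scale with neqc (limma 3.58.1, R 4.3.3). Probes with a detection p under 0.01 on at least 1 array were kept, and a gene's probe with the highest mean stood for it. Of 25697 probes 23978 had 1 symbol, 0 had several and 1719 are unnamed here, and 23962 were found by gene ID in the RefSeq table of GRCm38.p6. For a gene detected on 1 array of a pair, the difference is a bound, set against that other array's lowest detected value or the probe's own value there, whichever was higher. Neither labels nor files used here give a slide or scan batch. The steps were tested on simulated arrays, and motifs were searched with Python 3.11.15.

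Members and lists were chosen with earlier results of these data known. Named were all members, pathway-list genes at 2-fold in any comparison, 10 preset partners and the 3 nearest profiles of the 4 widest members. Crem, Nfe2, Map3k8, Ier3, Zfp36, Mmp13 and the cell type markers were named after their values were seen. The 7 alternatives were no background correction, median scaling, an offset of 50, the authors' values, a looser detection filter (0.05), a stricter one (all 3 arrays) and the mean of a gene's probes.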

Additional observations from a re-analysis of the deposited data

How the results depend on the processing

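No paired analysis was possible because each group has 1 array, and for the same reason no array could be left out. Of 189 member differences recomputed under 7 alternatives, 182 moved by less than the median scatter between probes, 7 moved by more and 0 of the 2-fold differences changed sign. The looser and stricter detection filters and the mean of a gene's probes could not move any member. Each member had 1 detected probe, above background on all 3 arrays, so those alternatives repeated the reported values and add to the 182. In mDC against imDC the count of members at 2-fold was 2 in every alternative. In tDC against imDC it was 0 without background correction and 0 in the authors' processed values, against 1 as reported. In mDC against tDC it was 1 without background correction, 1 with an offset of 50 and 1 in the authors' processed values, against 2 as reported. Maff accounts for each of these losses. With median scaling Fos joined in mDC against tDC, for a count of 3.

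Over all genes, 143 were higher and 69 lower in tDC against imDC without background correction, and 155 and 85 in the authors' processed values, against 227 and 159. In mDC against tDC 180 were higher and 126 lower without background correction, against 269 and 219. Counts of the related lists were also recomputed, as alternatives chosen after seeing the data. There Ptgs2, which was not above background in tDC and imDC, lost its call without background correction, in the authors' values and under the stricter detection filter. Signal over background limits the Maff values most, since 210.9 in mDC and 214.3 in imDC lay close to the lowest detected signals.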
